A study of Mus musculus with 371 samples.

Results

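The cytokines IL-2, IL-4, IL-7, IL-9, IL-15 and IL-21 signal to lymphocytes through receptors built around 1 shared subunit, the common gamma chain. The genes described here are Il2rg, which encodes that chain, and the partners Il2rb, Il2ra, Il7r, Il4ra and Il21r, 6 of the 23362 genes used from the deposited table. They were chosen by name. T cells were sorted from B16F10 melanoma tumours, a transplantable mouse melanoma line, in C57BL/6 mice that were Il27ra knockout (KO, lacking the alpha subunit of the IL-27 receptor by label) or wild type (WT). Each cell was sequenced singly by Smart-seq2, a full-length method without molecular identifiers. The labels give neither the age of the mice, the time after tumour implantation nor any other treatment, and the treatment text speaks of CD8+ T cells alone although the titles of 2 of the 4 groups say CD4. After removing cells with fewer than 1000 genes at 1 FPKM (fragments per kilobase, scaled to the depth of the cell), the groups held 89 of 93 KO CD4 cells, 85 of 94 WT CD4 cells, 86 of 90 KO CD8 cells and 90 of 94 WT CD8 cells.

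Each of the 4 groups carries a single animal name and the number 3 beside its genotype, so each was read as 1 sample of cells. No test between groups is possible on that footing, and the genotype cannot be told apart from the animal or the sort. The titles also end in p1 for both CD8 groups and p2 for both CD4 groups, a mark the labels do not explain, so it cannot be told apart from the difference between CD4 and CD8 cells. All intervals below are exact (Clopper-Pearson) 95% intervals of a share of cells, and they cover counting error within 1 pool only. Where no cell had a gene, the share said to be allowed is an approximate limit instead, 3 divided by the number of cells. A difference is the mean of log2(FPKM + 1) over the cells of the first group minus that of the second, on a scale that understates differences of low genes, and the line used for size is a difference of 1. A gene found (1 FPKM or more) in 20% or more of the cells of one or both groups is called measured.

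Gamma-chain receptors signal through the kinases Jak1, bound to the partner chain, and Jak3, bound to the gamma chain, and then through STAT factors. IL-2 and IL-15 act through Il2rb and the gamma chain, and Il2ra raises the affinity for IL-2; Il2ra is carried at high level by regulatory T cells and by recently activated T cells. IL-7 receptor maintains naive and memory T cells and is commonly lost from effector cells, while the IL-4 and IL-21 receptors pair the gamma chain with Il4ra and Il21r.

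Cd3e was found in 87.6% of KO CD4, 87.1% of WT CD4, 86.0% of KO CD8 and 93.3% of WT CD8 cells. Cd4 was at 1 FPKM or more in 87.6% of KO CD4 cells and 87.1% of WT CD4 cells, and in 0 of 86 KO CD8 and 0 of 90 WT CD8 cells, which allow shares of up to 3.49% and 3.33%. Cd8a was in 1.12% and 2.35% of the KO and WT CD4 cells, against 81.4% and 83.3% of the KO and WT CD8 cells. Cd8b1 was in 21.3% of KO and 24.7% of WT CD4 cells, against 91.9% of KO and 86.7% of WT CD8 cells. Among CD4 cells, 35 KO cells (39.3%) and 46 WT cells (54.1%) were Foxp3 positive (1 FPKM or more), which leaves 54 KO and 39 WT cells Foxp3 negative. At least 2 of 6 regulatory T cell markers, Foxp3 among the 6, were found in 48.15% of KO and 46.15% of WT Foxp3 negative cells. The shares were 100% of KO and 97.8% of WT Foxp3 positive cells, and 37.2% of KO and 41.1% of WT CD8 cells. Whether Foxp3 was missed in some Foxp3 negative cells was not tested. Il27ra transcript was found in 50.6% of KO CD4, 50.6% of WT CD4, 53.5% of KO CD8 and 51.1% of WT CD8 cells, so it gives no check of the KO label. The median number of genes per cell was 2152 in KO and 1884 in WT Foxp3 positive cells, 1746 in KO and 1547 in WT Foxp3 negative cells, and 1955 in KO and 2148 in WT CD8 cells. Judged from the low values of genes with 1 annotated transcript, 1 fragment was worth about 0.394 FPKM for Il4ra (the longest transcript of the 6) to 1.24 FPKM for Il2rg (the shortest), so a gene at 0 in a cell may be a transcript missed at this depth. Melanoma transcripts accompanied the T cells: at least 2 of 5 melanoma markers were found in 12.4% of KO CD4, 17.7% of WT CD4, 15.1% of KO CD8 and 21.1% of WT CD8 cells. Their part in the differences below was not tested beyond leaving such cells out.

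The genes lie on 4 chromosomes in GRCm38.p6, the build of the deposited table (mm10). Il2ra spans chr2:11642792-11693194 on the plus strand, Il2rb chr15:78479256-78511621 on the minus strand, Il2rg chrX:101264385-101268255 on the minus strand and Il7r chr15:9506159-9529941 on the minus strand. Il4ra (chr7:125552271-125579474) and Il21r (chr7:125603252-125634397) are neighbours on the plus strand. All but Il2rb have an entry in the RefSeq promoter table. Its windows of 250 bases before the transcription start were searched on both strands for a STAT motif (TTCNNNGAA) and a FOXO motif (GTAAACA). The STAT motif occurs in 7.02% and the FOXO motif in 3.17% of the 32851 windows of the same length. The windows shown belong to Il2ra, whose level separated the groups most, and to Il7r, the receptor with a higher mean in KO than in WT CD8 cells by more than 1; bases inside the span of the gene were left out, and capitals mark a motif match.
Il2ra, chr2:11642542-11642791, plus strand: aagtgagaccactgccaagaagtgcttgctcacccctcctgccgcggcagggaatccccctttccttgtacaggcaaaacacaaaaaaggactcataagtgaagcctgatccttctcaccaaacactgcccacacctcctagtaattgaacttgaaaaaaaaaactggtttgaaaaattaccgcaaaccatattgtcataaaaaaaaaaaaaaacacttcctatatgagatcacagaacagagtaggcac
Il7r, chr15:9529942-9530126, minus strand: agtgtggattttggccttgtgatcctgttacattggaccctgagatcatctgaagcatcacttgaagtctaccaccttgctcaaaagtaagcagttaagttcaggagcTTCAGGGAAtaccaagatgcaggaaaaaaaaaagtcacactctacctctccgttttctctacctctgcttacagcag
The Il7r window held 1 STAT match. The Il2ra, Il2rg and Il4ra windows held neither motif, and the Il21r window held 1 FOXO match. That match began at position -38 from the end of the window. It lay inside the annotated span of Il21r, since only the first 73 bases of that window lie outside the span. A match is a stretch of letters, not a measured binding site.

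Il2rg, the shared chain, had the highest mean level of the 6 in every group. Its median was 1718 FPKM in KO and 1489 in WT Foxp3 positive cells, 578 in KO and 743 in WT Foxp3 negative cells, and 872 in KO and 1046 in WT CD8 cells. The lowest value was 0 in every group, and the highest was 12530 FPKM in a KO Foxp3 positive cell, against a highest of 4271 FPKM in WT Foxp3 positive cells. Between 77.8% (KO Foxp3 negative) and 97.1% (KO Foxp3 positive) of cells had it at 1 FPKM or more, and the intervals of neighbouring groups in that order overlapped.

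Il2rb, the beta chain that IL-2 and IL-15 share, came second in every group but the Foxp3 negative cells, where Il7r was level with it or above it. Its median was 376.6 FPKM in KO and 352.7 FPKM in WT Foxp3 positive cells, 96 FPKM in KO and 76.3 FPKM in WT Foxp3 negative cells, and 230.6 FPKM in KO and 346 FPKM in WT CD8 cells. It was detected in 97.1% (interval 85.1 to 99.9) of KO and 93.5% (82.1 to 98.6) of WT Foxp3 positive cells. The shares were 68.5% (54.5 to 80.5) of KO and 58.97% (42.1 to 74.4) of WT Foxp3 negative cells. These intervals did not overlap between Foxp3 positive and negative cells of the same genotype. In CD8 cells the shares were 82.6% in KO and 92.2% in WT.

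Il2ra, the alpha chain, separated the groups most. It was detected in 82.9% (66.4 to 93.4) of KO and 82.6% (68.6 to 92.2) of WT Foxp3 positive cells, against 11.1% (4.19 to 22.6) of KO and 5.13% (0.627 to 17.3) of WT Foxp3 negative cells. CD8 cells had it in 6.98% (2.603 to 14.6) in KO and 13.3% (7.08 to 22.1) in WT. At a cutoff of 5 FPKM the share in KO CD8 cells was 2.33%. A further 6 KO and 10 WT CD8 cells had a value above 0 but under 1 FPKM. Counting any value above 0, the share in WT CD8 cells was 24.4%. These 2 shares are at unlike cutoffs and do not compare KO with WT. The step between WT Foxp3 positive cells and the next group, WT CD8, was the only one between neighbours in the order of any of the 6 genes at which the intervals of the shares did not overlap. Groups further apart in the order can also have separate intervals, as for Il2rb in Foxp3 positive and negative cells. Where Il2ra was detected, its median was 73.3 FPKM in KO and 31.6 FPKM in WT Foxp3 positive cells. Of the WT Foxp3 negative cells, 2 had it, the higher at 2.54 FPKM, and the 6 KO Foxp3 negative cells with it had a median of 5.15 FPKM and a highest of 93.1 FPKM. In CD8 cells the median where detected was 2.55 FPKM over 6 KO cells, against 45.5 FPKM over 12 WT cells.

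Il7r, the IL-7 receptor alpha chain, was found in most cells of every group, and the intervals of its shares overlapped between Foxp3 positive and negative cells. It was detected in 74.3% of KO and 65.2% of WT Foxp3 positive cells, 64.8% of KO and 69.2% of WT Foxp3 negative cells, and 69.8% (58.9 to 79.2) of KO and 54.4% (43.6 to 64.98) of WT CD8 cells. Its median was 40.3 FPKM in KO and 98.9 FPKM in WT Foxp3 positive cells, 67.8 FPKM in KO and 178.7 FPKM in WT Foxp3 negative cells, and 112.4 FPKM in KO and 27.7 FPKM in WT CD8 cells. The upper quartiles ran from 228.5 FPKM in WT CD8 cells to 562 FPKM in WT Foxp3 positive cells, and each group held cells at 0 beside a highest value of 917 FPKM (WT CD8) or more.

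Il4ra, the IL-4 receptor alpha chain, was detected in 54.3% of KO and 47.8% of WT Foxp3 positive cells, 27.8% (16.5 to 41.6) of KO and 46.2% (30.1 to 62.8) of WT Foxp3 negative cells, and 46.5% of KO and 45.6% of WT CD8 cells. Where found, its median lay between 93.1 FPKM (WT CD8) and 176.3 FPKM (WT Foxp3 negative). Il21r, the IL-21 receptor, was detected in 57.1% of KO and 47.8% of WT Foxp3 positive cells, 44.4% of KO and 48.7% of WT Foxp3 negative cells, and 47.7% (36.8 to 58.7) of KO and 67.8% (57.1 to 77.2) of WT CD8 cells. In KO Foxp3 negative cells the median over Il21r-positive cells was 47.4 FPKM, against 272.7 FPKM in WT Foxp3 negative cells. The lower quartile over these cells was 2.68 FPKM in KO and 140.9 FPKM in WT. For Il21r 1 fragment was worth about 0.829 FPKM. Part of the KO cells counted as having Il21r thus held values of few fragments, near the cutoff of 1 FPKM.

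**Figure D1:**
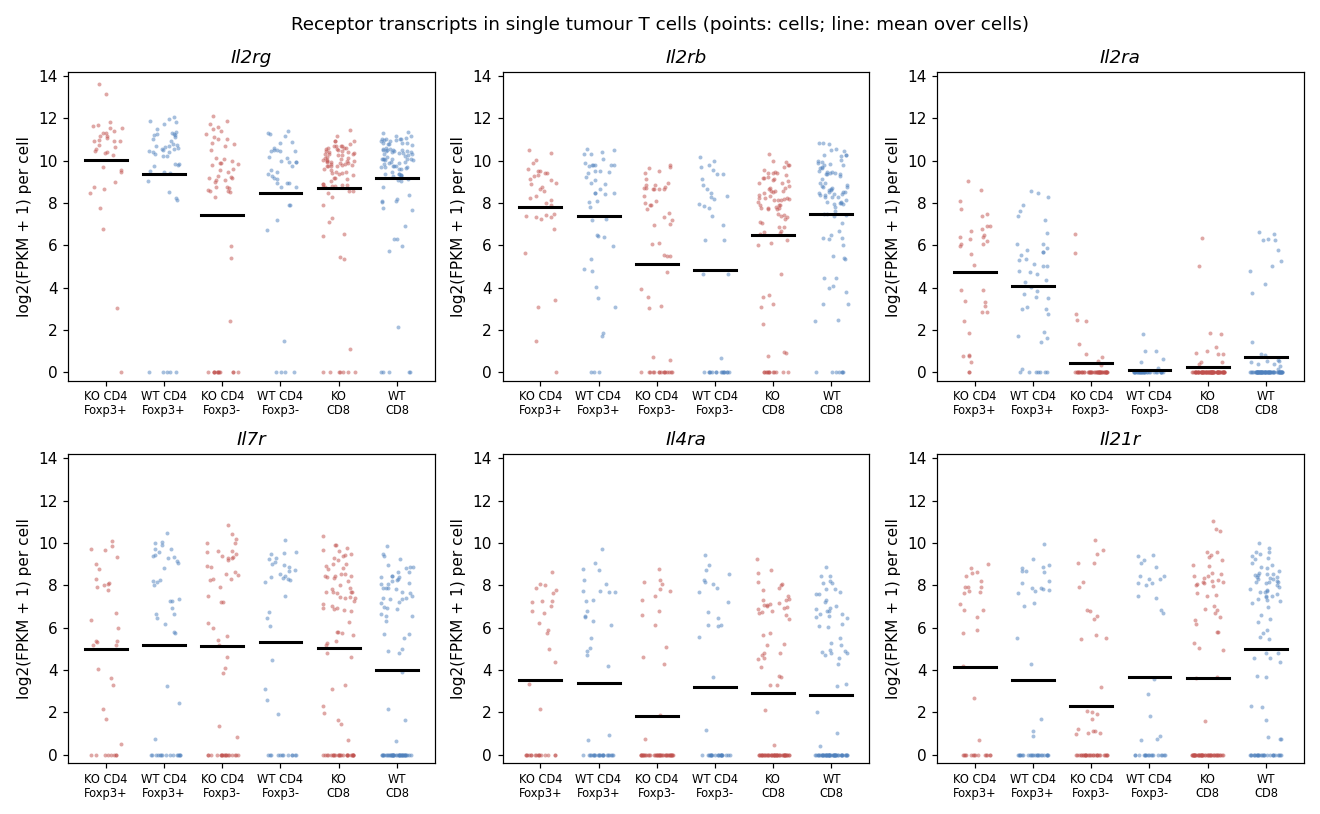
Level of each receptor gene in every kept cell, as log2(FPKM + 1), for KO (red) and WT (blue) cells of the Foxp3 positive CD4, Foxp3 negative CD4 and CD8 groups; a point is 1 cell and the black line is the mean over cells. Il2ra is near 0 outside the Foxp3 positive cells, where its means are 4.76 in KO and 4.10 in WT cells, while Il2rg is high in all 6 groups.

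Foxp3 positive cells had means higher by more than 1 than Foxp3 negative cells for 5 of the 6 receptors in KO and for 2 of the 6 in WT, Il2ra and Il2rb. In KO CD4 cells the differences were 4.32 for Il2ra, 2.70 for Il2rb, 2.58 for Il2rg, 1.85 for Il21r and 1.67 for Il4ra. In WT CD4 cells they were 3.97 for Il2ra and 2.57 for Il2rb, and Il2rg (0.88), Il4ra (0.20) and Il21r (-0.12) stayed inside 1. Il7r differed by -0.13 in KO and -0.13 in WT. Of all measured genes, 30% in KO and 23.9% in WT were higher in Foxp3 positive cells past 1, and 2.35% in KO and 4.81% in WT were lower. The median difference was 0.60 over all 4849 measured genes and 2.21 over the receptors in KO, and 0.42 over 3850 genes and 0.54 over the receptors in WT. Foxp3 positive cells also had more genes per cell in both genotypes. Among the 10 alternatives to the settings used, Il2ra and Il2rb stayed past 1 in both genotypes, but Il2rg in KO came to 0.67 in cells with at least 2000 genes and to 1.2 within bins of genes per cell (edges at 1500, 2000 and 3000). Il4ra in KO came to 0.87 with a pseudocount of 10. Il7r changed sign in 5 alternatives in KO and in 3 in WT, where it reached 1.43 in cells with at least 2000 genes.

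**Figure D2:**
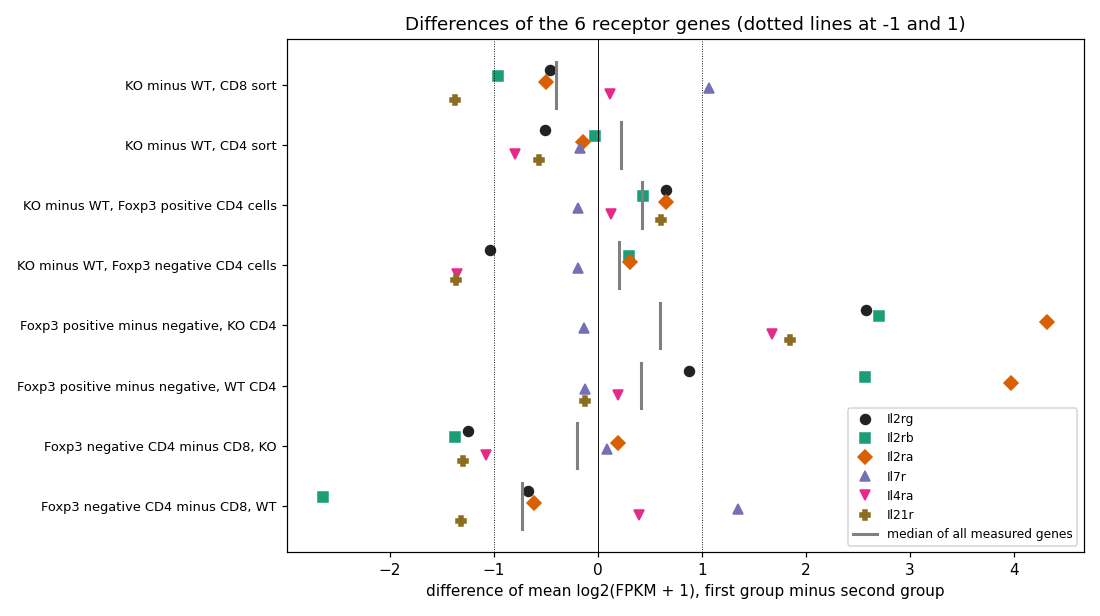
Difference in mean log2(FPKM + 1) of each receptor gene in the 8 comparisons, first group minus second, with the median of all measured genes as a grey line and dotted lines at -1 and 1. Il2ra and Il2rb lie past 1 in both comparisons of Foxp3 positive with negative cells, and Il7r is the one receptor above 1 in KO against WT CD8 cells, where Il21r lies below -1.

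In CD8 cells the mean of Il7r was higher in KO than in WT and that of Il21r was lower. Il7r averaged 5.05 in KO and 3.98 in WT on the log2 scale, a difference of 1.07, while 0.555% of the 4686 measured genes were higher in KO past 1. Il21r averaged 3.60 in KO and 4.97 in WT, a difference of -1.38, while 13.3% of genes were lower past 1. Where detected, the median of Il7r was 204.1 FPKM in KO and 207.6 FPKM in WT. That of Il21r was 269.5 FPKM in KO and 226.8 FPKM in WT. The differences of the means thus followed the shares of cells with the gene, whose KO and WT intervals overlapped for both. The other measured receptors differed by 0.12 for Il4ra, -0.46 for Il2rg and -0.96 for Il2rb, against a median of -0.40 over all measured genes and -0.48 over the 6 receptors. Il2ra was detected in too few CD8 cells to be judged by this rule and differed by -0.50. KO CD8 cells also had fewer genes per cell than WT CD8 cells. Over the 10 alternatives Il7r lay between 0.63 and 2.03 and Il21r between -2.11 and -0.68. Within bins of genes per cell the differences were 0.78 for Il7r and -0.68 for Il21r, so neither reached 1 there. With a pseudocount of 10 both were inside 1 too, at 0.63 and -0.74, and Il7r was 0.92 with all cells. Il2rb passed -1 with all cells (-1.02) and with a pseudocount of 0.1 (-1.198).

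In CD4 cells as sorted, no receptor differed past 1 between KO and WT at the settings used: the differences ran from -0.80 for Il4ra to -0.02 for Il2rb, with -0.57 for Il21r, -0.51 for Il2rg, -0.17 for Il7r and -0.14 for Il2ra. Il4ra came to -1.22 in cells with at least 2000 genes and -1.12 with a pseudocount of 0.1, and Il2rg to -1.19 within bins of genes per cell. Past 1, 9.91% of the 3864 measured genes were higher in KO and 0.983% were lower, with a median of 0.23, against -0.34 over the receptors. The sorted CD4 groups differed in their share of Foxp3 positive cells, 39.3% in KO and 54.1% in WT, so the split groups are given next. In Foxp3 positive cells no receptor passed 1 either, at 0.66 for Il2ra, 0.65 for Il2rg, 0.61 for Il21r, 0.44 for Il2rb, 0.12 for Il4ra and -0.19 for Il7r. Among the 4894 measured genes there, 21.5% were higher in KO and 2.31% lower, and their median difference was 0.42, close to the receptors' 0.52. Il2rg moved between -0.50 within bins of genes per cell and 1.01 without cells carrying markers of other types.

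In Foxp3 negative CD4 cells 3 of the 5 measured receptors had lower means in KO past 1: Il21r at -1.36, Il4ra at -1.35 and Il2rg at -1.04. Past 1, 3.15% of the 3426 measured genes were lower in KO and 13.5% were higher, with a median of 0.21, against -0.61 over the 6 receptors. The means on the log2 scale were 2.30 in KO and 3.66 in WT for Il21r, 1.85 in KO and 3.20 in WT for Il4ra, and 7.45 in KO and 8.495 in WT for Il2rg. Il2rb (0.30) and Il7r (-0.19) were inside 1 as reported, but in cells with at least 2000 genes they came to 1.63 and 1.61, and Il2rb came to 1.06 without cells carrying markers of other types. Il2ra, in too few cells to count as measured, differed by 0.31. The intervals of the detected shares overlapped between KO and WT for all 6 genes. Over the cells with the gene alone, the mean was 9.58 in KO and 9.47 in WT for Il2rg. For Il4ra it was 6.59 in KO and 6.93 in WT. The lower KO means of Il2rg and Il4ra thus lay mostly in cells without the gene detected. For Il21r the mean over cells with it was 5.12 in KO and 7.38 in WT. The KO mean includes cells near the cutoff of 1 FPKM (lower quartile 2.68 FPKM, against 140.9 FPKM in WT). Il2rg turned to 0.65 in cells with at least 2000 genes, which are 16 KO and 6 WT cells, and was -0.65 without cells carrying markers of other types. Il21r lay between -1.79 and -0.90 and Il4ra between -2.94 and -0.80.

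Foxp3 negative CD4 cells had lower means than CD8 cells of Il2rb and Il21r in both genotypes. Over WT cells with the gene alone, the mean of Il2rb was 8.16 in Foxp3 negative and 8.10 in CD8 cells. That of Il21r was 7.38 in WT Foxp3 negative and 7.30 in WT CD8 cells. Over KO cells with the gene, these means were 7.46 and 7.85 for Il2rb, and 5.12 and 7.54 for Il21r. The 5.12 includes cells near the cutoff of 1 FPKM (lower quartile 2.68 FPKM). In KO the differences were -1.38 for Il2rb, -1.30 for Il21r, -1.25 for Il2rg and -1.08 for Il4ra, while 8.45% of the 3679 measured genes were lower in CD4 cells past 1 and 3.86% were higher. In WT they were -2.64 for Il2rb and -1.32 for Il21r, with Il7r at 1.34, while 35.2% of the 4687 measured genes were lower in CD4 cells past 1 and 0.875% were higher. Il7r was 0.09 in KO. The median over the receptors was -1.17 in KO and -0.64 in WT, against -0.20 and -0.73 over all measured genes. Foxp3 negative CD4 cells held fewer genes per cell than CD8 cells in both genotypes. Il2rb in WT stayed past -1 under all 10 alternatives, at -1.61 within bins of genes per cell, whereas Il21r in WT came to -0.44 and Il7r in WT to -0.11 within those bins, and Il2rg in KO to 0.96 in cells with at least 2000 genes. With a pseudocount of 10, Il2rb (-0.89), Il21r (-0.89), Il2rg (-0.79) and Il4ra (-0.51) in KO and Il21r (-0.73) and Il7r (0.91) in WT were inside 1.

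A receptor needs its chains in 1 cell, and a chain listed at 0 in a cell may have been missed. All 3 IL-2 receptor chains were detected together in 80% of KO and 73.9% of WT Foxp3 positive cells, against 7.41% of KO and 2.56% of WT Foxp3 negative cells and 5.81% of KO and 13.3% of WT CD8 cells. The pair Il2rb with Il2rg, the signalling pair for IL-2 and IL-15, was found in 94.3% of KO and 89.1% of WT Foxp3 positive cells, 61.1% of KO and 56.4% of WT Foxp3 negative cells, and 79.1% of KO and 87.8% of WT CD8 cells. The IL-7 receptor pair was found in 74.3% of KO and 56.5% of WT Foxp3 positive cells, 53.7% of KO and 61.5% of WT Foxp3 negative cells, and 63.95% of KO and 51.1% of WT CD8 cells. A cell had on average 4.63 of the 6 genes in KO and 4.26 in WT Foxp3 positive cells, 2.94 in KO and 3.18 in WT Foxp3 negative cells, and 3.45 in KO and 3.68 in WT CD8 cells. The groups also differ in genes per cell, and the part of that in these averages was not tested.

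**Figure D3:**
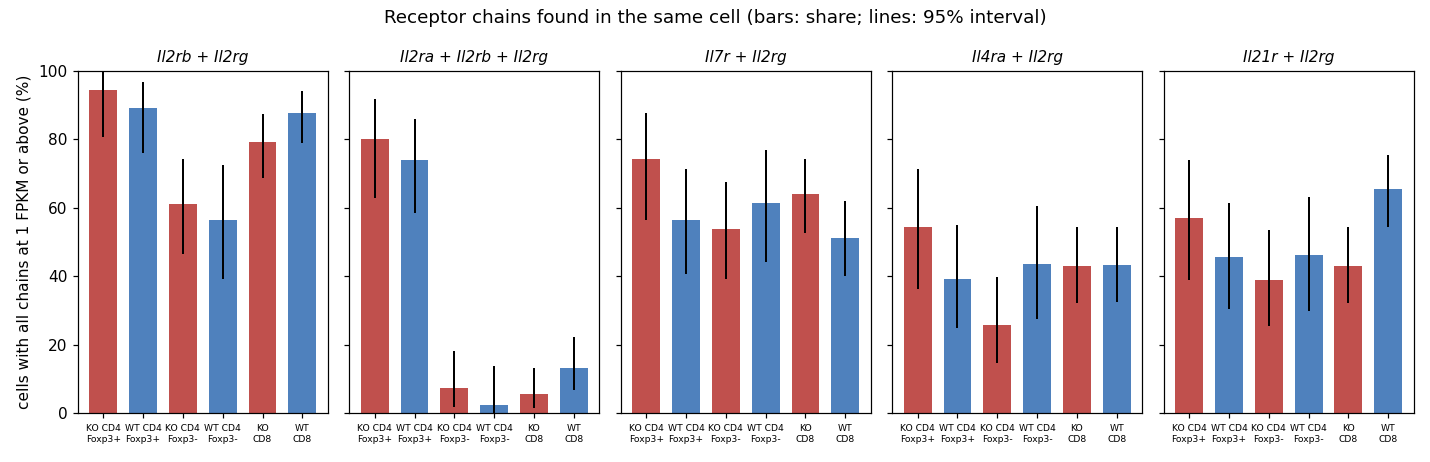
Share of cells in which all named chains were at 1 FPKM or above, for KO (red) and WT (blue) cells of the 3 kinds of T cell, with exact 95% intervals as lines. The 3 IL-2 receptor chains come together in 80% of KO and 73.9% of WT Foxp3 positive cells and in at most 13.3% of cells of the other groups.

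Il15ra, the chain that presents IL-15, was found in 4.65% of KO and 17.8% of WT CD8 cells, and Il9r in at most 11.1% of any group. In CD4 cells as sorted, Il9r was in 9 of 89 KO cells (10.1%, interval 4.73 to 18.3). It was in 0 of 85 WT CD4 cells (upper end of the exact interval 4.25%), and in 2.33% of KO and 1.11% of WT CD8 cells. Of the 27 other genes of the pathway (4 receptors, 2 kinases, 5 STAT factors, 6 cytokines and 10 targets or inhibitors), 15 or 16 were measured in each comparison and none of the 6 cytokines was. Il7 and Il9 were at 1 FPKM or more in no kept cell, which in the smallest group of 35 cells allows a share of up to 8.57%. Il2 was found in 3 KO CD8 cells and 4 KO Foxp3 negative cells, against 0 of 90 WT CD8 cells and 0 of 39 WT Foxp3 negative cells, which allow shares of up to 3.33% and 7.69%.

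Between Foxp3 positive and negative KO cells, 8 of 15 measured pathway genes were higher past 1 and 1 was lower, against 30% and 2.35% of all measured genes. Cish, an inhibitor induced by STAT5, was detected in 91.4% of KO Foxp3 positive cells, against 35.2% of KO Foxp3 negative cells (a difference of 4.97 in level), with Stat5a at 2.10 and Jak3 at 2.04. In WT, 3 of 16 were higher (Jak3 at 3.81, Cish at 3.17 and Crlf2, a receptor for TSLP, at 2.00), against 23.9% of all measured genes. Also in WT, Socs3 (-3.55), Bcl2, a survival gene, (-2.55) and Pim2 (-1.32) were lower, against 4.81% of all genes. Between genotypes, Foxp3 negative KO cells had lower means past 1 for 5 of 16 measured genes, among them Socs3 (-4.53), Bcl2 (-2.10), Stat3 (-1.31) and Stat6 (-1.06), and a higher mean of Jak3 (1.58), against 3.15% of all genes lower and 13.5% higher. Socs3, an inhibitor of cytokine signalling, was detected in 35.2% (22.7 to 49.4) of KO and 82.1% (66.5 to 92.5) of WT Foxp3 negative cells. In CD8 cells 2 of 15 were lower in KO, among them Stat3 (-1.52), and none was higher, against 13.3% and 0.555% of all genes. In Foxp3 positive cells 4 of 15 were higher in KO, Socs2 (2.51), Cish (1.84), Jak1 (1.12) and Mcl1 (1.02), and Socs3 was lower (-2.17), against 21.5% of all genes higher and 2.31% lower. In CD4 cells as sorted, 1 of 15 was higher in KO, Socs2 (1.51), and 2 were lower, among them Socs3 (-3.07), against 9.91% and 0.983% of all genes. Between Foxp3 negative CD4 and CD8 cells, 1 of 16 was higher and 4 were lower in KO, against 3.86% and 8.45% of all genes. In WT Socs3 (2.48) was higher while Jak3 (-2.21) and Jak1 (-1.66) were lower, against 0.875% and 35.2% of all genes. The median over the measured pathway genes was 1.07 in KO and -0.05 in WT for Foxp3 positive against negative cells. Between KO and WT it was 0.59 in Foxp3 positive, -0.60 in Foxp3 negative and -0.30 in CD8 cells.

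Within the CD8 cells, Il7r was found more in cells with Tcf7, a factor of naive and memory T cells. It was detected in 83.9% of 56 KO cells with Tcf7 and 43.3% of 30 without, and in 74.5% of 47 WT cells with Tcf7 and 32.6% of 43 without, with medians of 2053 and 2763 genes per cell in WT. It was found less in cells with Gzmb, which encodes the cytotoxic protease granzyme B: 42.9% of 21 KO cells with it and 78.5% of 65 without, and 35.3% of 34 WT cells with it and 66.1% of 56 without, where the intervals overlapped in WT. In WT, Il7r was in 24% of 25 cells with Havcr2, the inhibitory receptor TIM-3, and in 66.2% of 65 without. These splits compare cells of 1 pool, and the cells with Gzmb or Havcr2 also held more genes in WT (medians of 3210 and 3538 genes per cell, against 2043 and 2048 without). Il2ra showed the opposite arrangement in WT CD8 cells: 44% of cells with Havcr2 and 1.54% without, and 32.4% with Gzmb and 1.79% without. It was in 0 of 47 WT CD8 cells with Tcf7 (upper end of the exact interval 7.55%) and in 27.9% of 43 without. In KO CD8 cells these splits had overlapping intervals: Il2ra was in 7.14% of 56 cells with Tcf7 and 6.67% of 30 without, in 14.3% with Gzmb and 4.62% without, and in 1 of 7 cells with Havcr2 and 6.33% of 79 without. Il7r in KO was in 57.1% of the 7 cells with Havcr2 and 70.9% without, again with overlapping intervals. In KO CD8 cells, Il4ra was in 17.4% of 23 cells with Pdcd1, the inhibitory receptor PD-1, and 57.1% of 63 without, whereas in WT it was in 41.7% of 36 with and 48.1% of 54 without, with overlapping intervals. Of all such splits computed (7 state genes in 6 groups for 6 receptors), 13 had intervals that did not overlap, 6 with the receptor higher beside the state gene and 7 lower.

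**Figure D4:**
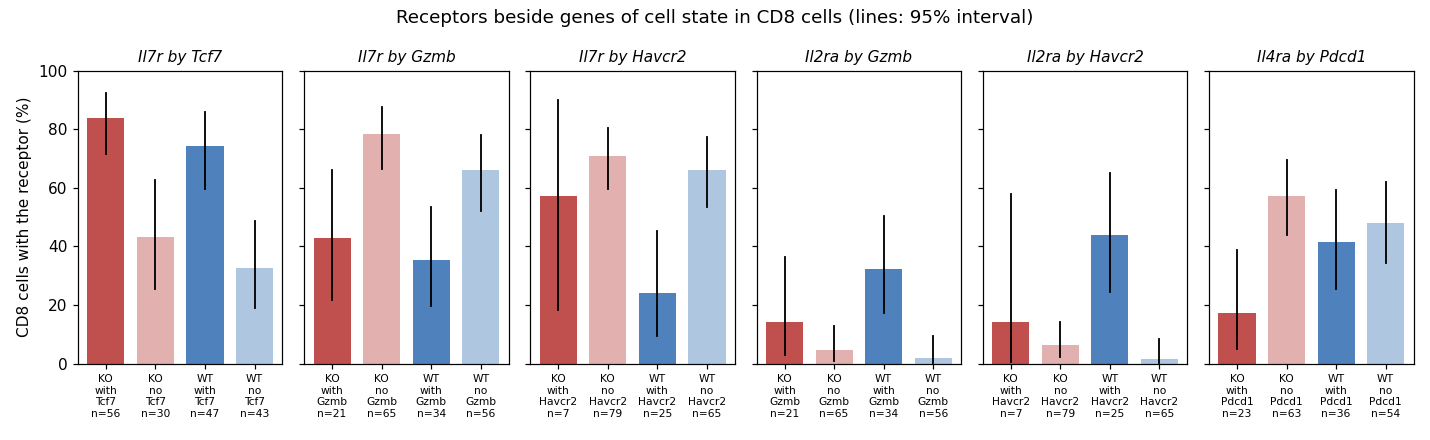
Share of CD8 cells with the receptor at 1 FPKM or above, in cells with (dark) and without (light) a gene of cell state, for KO (red) and WT (blue) cells, with exact 95% intervals as lines and the number of cells under each bar. Il7r is in 83.9% of KO and 74.5% of WT cells with Tcf7, and Il2ra in WT cells lies mostly in cells with Havcr2 or Gzmb.

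Cish, detected beside the IL-2 receptor chains in the same cell, was in 82.9% of KO CD4 cells with Il2ra and 40.7% without, and in 57.5% of WT CD4 cells with Il2ra and 37.8% without, with intervals that overlapped in WT alone. Most CD4 cells with Il2ra were Foxp3 positive, 29 of 35 in KO and 38 of 40 in WT. Within Foxp3 positive cells Cish was in 96.6% of KO cells with Il2ra and 66.7% of 6 without, and in 57.9% of WT cells with Il2ra and 87.5% of 8 without, with overlapping intervals in both. In WT CD8 cells it was in 75% of the 12 cells with Il2ra and 25.6% of the 78 without; the cells with Il2ra had a median of 4043 genes, against 2074. Bcl2, a target of IL-7 signalling in T cells, was in 48.3% of KO and 67.3% of WT CD8 cells with Il7r, against 26.9% of KO and 39.02% of WT CD8 cells without, with overlapping intervals in both. These pairs were examined after values had been seen. They were taken from all pairs of the 10 targets with the 6 receptors, computed in each group of cells. The pairs whose intervals did not overlap were not counted.

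Over the 350 kept cells, after centring on the 4 sorted groups, the genes most like Il2ra were Foxp3 (r = 0.62), Tnfrsf9 (0.58) and Lag3 (0.50), out of 3392 genes compared. The centring leaves the Foxp3 split of the CD4 cells in place. For Foxp3, r was 0.71 in KO CD4, 0.71 in WT CD4 and 0.30 in KO CD8 cells, with no value in WT CD8 cells. For Tnfrsf9 it lay between 0.55 (WT CD8) and 0.64 (KO CD8) in the 4 groups. The values in CD8 cells rest on few cells: Il2ra was detected in 6 of 86 KO and 12 of 90 WT CD8 cells. Foxp3 was detected in 4 of 86 KO CD8 cells. The genes most like Il7r were Emb (0.34), S1pr1 (0.31) and Tcf7 (0.26), and for Il4ra they included Ccr7 (0.28) and Ifngr2 (0.25). Il2rb was most like Actg1 (0.41), Tnfrsf18 (0.40) and Ly6a (0.40), Il2rg like Actb (0.37), H2-K1 (0.33) and Pkm (0.33), and Il21r like Tpm4 (0.30), Pdcd6ip (0.24) and Vasp (0.23). Cells of 1 pool share their sort and preparation, and their depth differs; the receptors' own correlation with genes per cell was 0.41 for Il2ra, 0.35 for Il2rb, 0.29 for Il2rg, 0.24 for Il21r, 0.14 for Il4ra and -0.14 for Il7r. With genes per cell regressed out, Foxp3 (0.60) and Tnfrsf9 (0.48) still led for Il2ra, followed by Ikzf2 (0.44) in place of Lag3. Before that regression Ikzf2 was at 0.05 in WT CD8 cells, against 0.45 to 0.61 in the other groups. Ccl5 (0.31) then led for Il2rb and H2-K1 (0.30) for Il2rg, Emb (0.32), Ccr7 (0.29) and Tpm4 (0.24) stayed first for Il7r, Il4ra and Il21r, and Tcf7 was no longer among the first 3 for Il7r. Most of the other values are weak and are no finding. Among the receptors themselves the highest were Il2rb with Il2rg (0.30) and Il2ra with Il2rb (0.28).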

How the data were processed

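Single T cells were sequenced by Smart-seq2. Per the labels and the submitters' processing notes, the authors used Bowtie and RSEM with mm10 and deposited 1 table of TMM-normalized FPKM values per gene and cell; tool versions are not given in the sources used here, and no counts or depth were used, so depth was estimated from low values. The table has 23366 rows, of which 4 with repeated symbols were left out, and 371 single-cell columns; 4 further columns that match no sample were not used. Values were compared as log2(FPKM + 1) in Python 3.11.15 with numpy 2.4.6, pandas 2.3.3 and scipy 1.17.1. The calculation of differences was run on the CD8 cells split at random, with known shifts added to some genes. That run checks the arithmetic only, not the effect of depth or missed transcripts. No pair of cells held identical values. Since a group is 1 sample, no test was made. The genes named are the 6 receptors, a list of 27 pathway genes, and for each receptor the 3 genes with the highest correlation. The receptors, the lists and the splits by state genes were chosen with earlier results of these data known, and the pairing of targets with receptors was added after seeing the values. The 10 alternatives per comparison were all cells, at least 2000 genes, pseudocounts of 0.1 and 10, each cell rescaled to the same sum, cutoffs of 5 FPKM and above 0, bins of genes per cell, cells that match their sort, and cells without markers of other types. Some genes that enter these counts are not reported here by name.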

Additional observations from a re-analysis of the deposited data

Results flagged for a closer look

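Il2rg and Il21r differed between KO and WT in opposite directions in the Foxp3 positive and the Foxp3 negative CD4 cells. Il4ra also had opposite signs, at 0.12 in Foxp3 positive and -1.35 in Foxp3 negative cells, but was not flagged. Il2rg differed by 0.65 in Foxp3 positive cells and by -1.04 in Foxp3 negative cells. Il21r differed by 0.61 in Foxp3 positive cells and by -1.36 in Foxp3 negative cells. The difference between these differences was not tested, since each group is 1 pool. Over all measured genes the median difference was 0.42 in Foxp3 positive and 0.21 in Foxp3 negative cells. In Foxp3 positive cells 63.1% of measured genes lay below Il2rg and 60.9% below Il21r, so both were near the general shift there. The Il2rg difference changed sign in Foxp3 negative cells with at least 2000 genes and in Foxp3 positive cells within bins of genes per cell, where Il21r also came to -0.14.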

How the results depend on the processing

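The median difference over the 6 receptors moved by less than 0.5 in 73 cases (8 comparisons under 10 alternatives each). In the other 7 it came to -0.041 for KO against WT Foxp3 positive cells within bins of genes per cell, to 0.51 for KO against WT Foxp3 negative cells with at least 2000 genes, and to 1.15 for Foxp3 positive against negative WT cells with at least 2000 genes. For Foxp3 positive against negative KO cells it came to 2.86 with a pseudocount of 0.1, 1.47 with a pseudocount of 10 and 1.33 within bins, and for Foxp3 negative CD4 against CD8 KO cells to -0.65 with a pseudocount of 10. Of the differences of single receptors, 415 moved by less than 0.5, 62 moved further and 3 that were past 1 changed sign: Il2rg to 0.65 (KO against WT Foxp3 negative cells) and to 0.96 (Foxp3 negative CD4 against CD8 KO cells) with at least 2000 genes, and Il7r to -0.11 (Foxp3 negative CD4 against CD8 WT cells) within bins. The cause was not tested. Cells with at least 2000 genes are few among Foxp3 negative cells, 16 in KO and 6 in WT. With 1 sample per group, no replicate could be left out, and no paired analysis was possible because no test was made. Counting every gene with a value above 0 lowered the share of genes past 1 in all 8 comparisons. Of the shares of cells with a receptor under these alternatives, 17 moved outside the exact interval of the share as reported.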
